A study of Mus musculus with 29 samples.

Results

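Chromatin accessibility was compared between embryonic cortex that carried 1 mutant Myt1l allele (Het) and wild-type cortex (WT) at E14.5. The libraries were selected by the genotype and litter in their titles, which gave 5 Het and 6 WT libraries, 11 of the 29 in the series. In litter 1 there were 3 Het and 4 WT libraries, and in litter 2 there were 2 Het and 2 WT libraries. All came from a MYT1L knockout mouse line. The Hom embryos of the same litters (6 libraries, 2 mutant alleles) entered the fit for its estimate of the spread and are given beside Het where they bear on it. No agent, Cre driver or transgene is named for these groups. Embryo sex is not analysed here. No label says that each library is a separate embryo, and every p below reflects variation between libraries only. In limma, the spread of each region is also pulled toward that of regions at a similar level.

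Myt1l encodes a zinc finger transcription factor that is switched on as neurons are born and is kept on in neurons. It binds regulatory DNA and is best known as a repressor of programs of other cell lineages and of progenitors during neuronal differentiation. At this stage the mouse cortex holds dividing progenitors and newborn neurons. ATAC-seq inserts adapters into open DNA with a transposase, so that the reads in a region measure how accessible it is. In whole cortex, a change in openness per cell and a change in the mix of cells cannot be told apart.

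The deposited table gives log2 CPM, read counts per region scaled to each library's total, for 205908 numbered regions. The 138760 regions that averaged 1 CPM or more over the 17 embryonic libraries were tested. The table pairs 0 region numbers with a gene, a position or a sequence, so regions are described by their number, level and pattern over libraries, and no marker of the cortex could be checked. Regions just inside and just outside the level rule had similar differences: the median Het minus WT difference was 0.04 log2 in 7331 regions at 1 to 1.1 CPM and 0.06 log2 (0.055) in 8560 regions at 0.9 to 1 CPM. Libraries were close to each other, with correlations of log2 values of 0.963 to 0.983 within WT, 0.961 to 0.982 within Het and 0.958 to 0.978 between WT and Het. The median level of tested regions was 3.06 to 3.14 CPM over the 11 libraries. At small groups of very variable regions, WT replicate 10 and Het replicates 27, 34 and 49 stood apart from their genotypes; the counts without each of them are given with the calls. The reads behind each library are unknown, so no counting interval is given.

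Loss of 1 Myt1l allele went with small changes in accessibility at a small share of regions. Of the 138760 regions, 1691 (1.22%) passed an adjusted p of 0.05 in limma, 555 higher (0.4%) and 1136 lower (0.819%) in Het. On the deposited scale the rises and the falls differed in size and level. Regions that rose had a median difference of 0.49 log2, a 1.4-fold increase, and a median level of 4.15 CPM. Regions that fell had a median difference of -0.26 log2, a 1.2-fold decrease, and a median level of 18.7 CPM. The middle region of all those tested stood at 3.08 CPM. The contrast did not hold among the 415 of these calls that also passed with each library's trend against level removed, a scaling described below: their rises had a median of 0.41 log2 at 7.18 CPM and their falls -0.45 log2 at 6.38 CPM. A difference above 0.5 log2 was reached by 263 rises and 108 falls. The smallest called rise was 0.19 log2 and the smallest called fall was -0.13 log2.

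**Figure D1:**
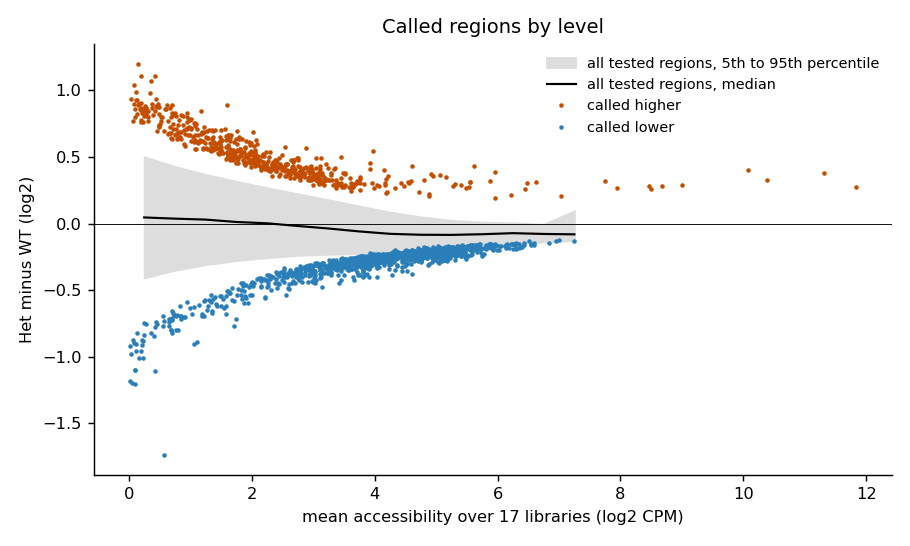
Het minus WT difference (log2, vertical axis) of each called region against its mean level over 17 libraries (log2 CPM, horizontal axis). The grey band spans the 5th to the 95th percentile of all tested regions and the black line is their median; the 555 rises lie mostly at low levels and the 1136 falls mostly at high levels, except for a few rises at the far right.

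In 3418 regions (2.46% of those tested) every Het library lay beyond every WT library, 1300 higher (0.937%) and 2118 lower (1.53%) in Het. Of the 1691 called regions, 1047 (61.9%) were separated in this way: 348 of the 555 rises and 699 of the 1136 falls. At the remaining called regions at least 1 Het library lay within the range of WT.

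How many regions passed depended on how the spread was counted and on single libraries. After the authors' adjustment for unwanted variation (RUVr), the libraries hardly varied in 3 of 16 directions, with a root mean square of 0.0113 to 0.0155 log2 against 0.265 to 0.341 in the other 13. The main fit counted these 3 among its 14 residual degrees of freedom. That makes the spread look smaller than it was, so 1691 is likely too high a count. Counting these 3 as covariates, which lowers the residual degrees of freedom from 14 to 11, left 170 regions (0.123%), each also among the 1691. Of these, 71 (0.0512%) rose and 99 (0.0713%) fell. With litter as a block 1122 regions passed, 362 higher and 760 lower. Without Het replicate 34 the count was 203, and without WT replicate 25 it was 456. It was 756, 791, 948 and 1516 without Het replicates 49, 64, 31 and 27. It was 769, 818, 1077 and 1375 without WT replicates 10, 43, 57 and 46, and it rose to 2232 without WT replicate 13. Het replicate 34 and WT replicate 25 were also the libraries with the highest mean correlation with their own genotype, 0.977 and 0.975. Their mean correlations with the other genotype, 0.972 and 0.970, were the highest as well. They were less often the highest: Het replicate 34 was the highest of the 11 libraries in 5076 regions and WT replicate 25 in 9626, against 11588 to 15281 in the other 9. limma's array weights, which give steadier libraries more influence, were 3.2 for Het replicate 34 and 1.97 for WT replicate 25, and 14789 regions passed with these weights.

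The direction of the difference followed the level of the region. In regions of 1 to 2 CPM the median difference was 0.04 log2 and Het was higher in 56.5% of 46363 regions. In regions of 16 to 32 CPM the median was -0.08 log2 and Het was higher in 17.4% of 9589 regions. At 32 CPM and more the median was again -0.08 log2, and Het was higher in 8.86% of 4955 regions. The called regions showed the same pattern, with 106 rises and 55 falls at 1 to 2 CPM against 22 rises and 371 falls at 16 to 32 CPM. The share called grew with level, from 0.347% at 1 to 2 CPM to 6.42% at 32 CPM and more, while the median standard error shrank from 0.21 to 0.05 log2. Hom medians in the same classes ran from 0.02 log2 at 1 to 2 CPM to -0.03 log2 at 16 to 32 CPM, against the same WT libraries.

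This tilt was a property of whole libraries. It was measured as the slope of each library's deviation from the mean of the 17 libraries against level, in log2 per log2. The Het slopes were -0.0132, -0.0109, -0.0231, -0.00965 and -0.020 in replicates 27, 31, 34, 49 and 64. The 6 WT slopes had a lowest value of -0.001, a median of 0.0148 and a highest value of 0.0164. The groups did not overlap, and the lowest WT slope was that of replicate 13. Het was lower by a mean of 0.027 (difference -0.027, two-sided exact permutation p = 0.00433, adjusted 0.00866 over a family of 2 tests). The permutation treats libraries as exchangeable, but RUVr adjusted them together with their genotype known. Spread within a genotype may therefore look smaller than it was, and this p may be too small.

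The other test of the family asked how much of the signal lay in the top decile of regions by level. That decile held 46.8%, 47.3%, 46.3%, 47.3% and 46.7% of the summed CPM in Het replicates 27, 31, 34, 49 and 64. In WT its lowest share was 46.9%, its median 48.0% and its highest 48.3%. WT replicate 13, at 46.9%, lay inside the Het range and the other 5 WT libraries lay above it. The means differed by -1.0 percentage points (46.9 ± 0.427 in 5 Het against 47.9 ± 0.524 in 6 WT libraries, SD; exact permutation p = 0.0152, adjusted 0.0152). The smallest p that this design allows is 0.00216. The p for the decile share has the same limit as that for the slope, since it rests on the same adjusted libraries.

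**Figure D2:**
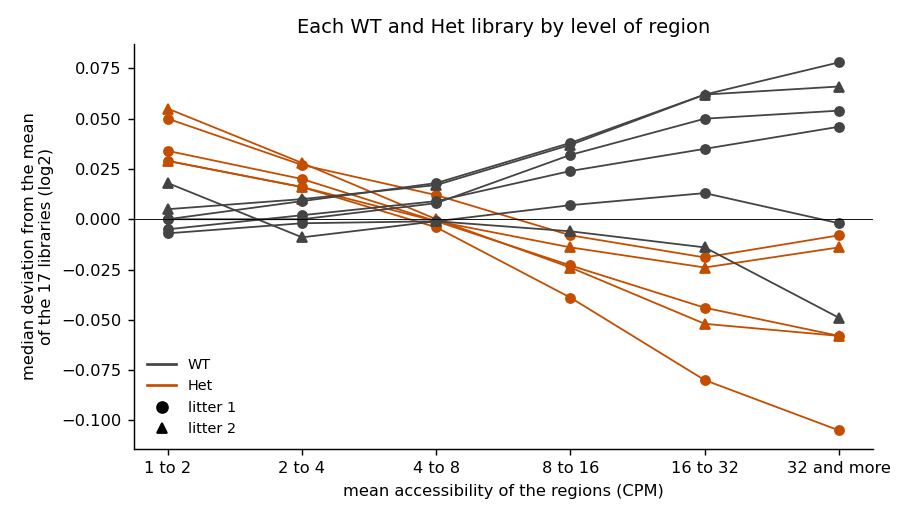
Median deviation of each WT and Het library from the mean of the 17 libraries (log2, vertical axis) in 6 classes of region by mean CPM (horizontal axis). Lines are libraries, coloured by genotype and marked by litter: all 5 Het libraries lie above all 6 WT libraries at 1 to 2 CPM and below them at 16 to 32 CPM, and WT replicate 13 joins the Het libraries at 32 CPM and more.

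The balance of rises and falls changed once this tilt was taken out. With each library's trend against level removed, 499 regions (0.36%) passed and 71.9% of them were higher in Het, 359 (0.259%) against 140 (0.101%), where 32.8% of calls were higher on the deposited scale. Quantile normalization gave 568 regions (0.409%), 388 higher and 180 lower, or 68.3% higher. The counts moved in opposite ways at high and low levels. At 16 to 32 CPM the 22 rises and 371 falls became 66 rises and 18 falls once the trend was removed, and at 32 CPM and more 28 rises and 290 falls became 42 rises and 9 falls. At 1 to 2 CPM 106 rises and 55 falls became 19 and 26, and at 2 to 4 CPM 159 and 57 became 50 and 32, so that most rises at low levels were lost. Of the 1691 calls, 415 (275 rises and 140 falls) also passed with the trend removed and 458 after quantile normalization. In all, 121 regions (63 rises and 58 falls) passed in the same direction as deposited, with the removed directions as covariates, with the trend removed and after quantile normalization. These 121 had median differences of 0.43 and -0.37 log2 at median levels of 11.5 and 15.0 CPM.

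The rises and falls with the smallest p among regions where the genotypes did not overlap show both ends of the data. The region all_e14_peak_219920, the second of all tested regions by level, measured 2680, 3010, 2980, 2810 and 3220 CPM in Het replicates 27, 31, 34, 49 and 64. In the 6 WT libraries its lowest value was 2010 CPM, its median 2270 and its highest 2450. Every Het library was above every WT library. The means were 2260 ± 151 CPM in 6 WT and 2940 ± 204 CPM in 5 Het libraries (SD), a rise of 0.38 log2 (SE 0.04) with a limma adjusted p of 1.86e-07. The Hom mean lay between them, at 2500 ± 173 CPM (n = 6), with libraries from 2200 CPM, inside the WT range, to 2680 CPM, level with the lowest Het library. Hom was lower than Het (-0.24 log2, SE 0.04, limma adjusted p = 0.011). The region was picked for its high Het values, which enter this test too, so this p is likely too small.

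The region all_e14_peak_230308, the fifth by level, measured 1150, 1300, 1290, 1180 and 1390 CPM in Het replicates 27, 31, 34, 49 and 64, against 856 to 1030 CPM (median 974) in WT. The means were 958 ± 63.8 CPM in WT and 1260 ± 97.4 CPM in Het, a rise of 0.40 log2 (SE 0.04) with a limma adjusted p of 2.41e-07. No library of either genotype entered the range of the other. Hom stood at 1050 ± 79.5 CPM, again below Het (difference -0.27 log2, limma adjusted p = 0.00785) and not called against WT (limma adjusted p = 0.297). This region too was picked for its high Het values, so the p against Het is likely too small. Over the 17 libraries, which share genotype and scaling, the log2 values of these named rises correlated at r = 0.995: a library that was high at one was high at the other. Quantile normalization gives a region that holds the same rank in every library the same value, and the differences then were 0.0 and 0.06 log2 (0.0555), neither called. With limma's robust estimate of the spread, the standard errors of these rises were 0.0604 and 0.0643 and their limma adjusted p-values 0.0137 and 0.0142. The main fit had standard errors of 0.0386 and 0.0417, so its far smaller p-values depended on how the spread was estimated. In both litters the rises were called, at 0.33 and 0.36 log2 in litter 1 and 0.47 log2 for each in litter 2.

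The named falls lay at 16 to 32 CPM, above the 3.08 CPM of the middle tested region and far below the named rises. The region all_e14_peak_37620 measured 22.2, 21.4, 20.6, 22.7 and 19.5 CPM in Het replicates 27, 31, 34, 49 and 64, and 28.7, 23.8, 27.5, 30.5, 28.6 and 26.9 CPM in WT replicates 10, 13, 25, 43, 46 and 57. The nearest libraries were Het replicate 49 and WT replicate 13. The means were 27.6 ± 2.25 CPM in WT, 21.3 ± 1.28 CPM in Het and 23.7 ± 0.909 CPM in Hom. The Het difference was -0.38 log2 (SE 0.06) with a limma adjusted p of 0.000529. The region all_e14_peak_144491 measured 16.1, 13.9, 12.9, 13.1 and 13.7 CPM in the Het libraries in the same order, and 17.3 to 19.4 CPM (median 18.5) in WT. Het replicate 27 was the closest to WT. The means were 18.4 ± 0.924 CPM in WT, 13.9 ± 1.26 CPM in Het and 16.8 ± 0.812 CPM in Hom, a Het difference of -0.40 log2 (SE 0.06) with a limma adjusted p of 0.000733. Both regions were lower in Het in each litter taken alone, by -0.42 and -0.38 log2 in litter 1 and -0.28 and -0.44 log2 in litter 2. In litter 2 neither was called (limma adjusted p = 0.592 and 0.329). All 4 named regions were called with the removed directions as covariates and with the level trend removed.

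**Figure D3:**
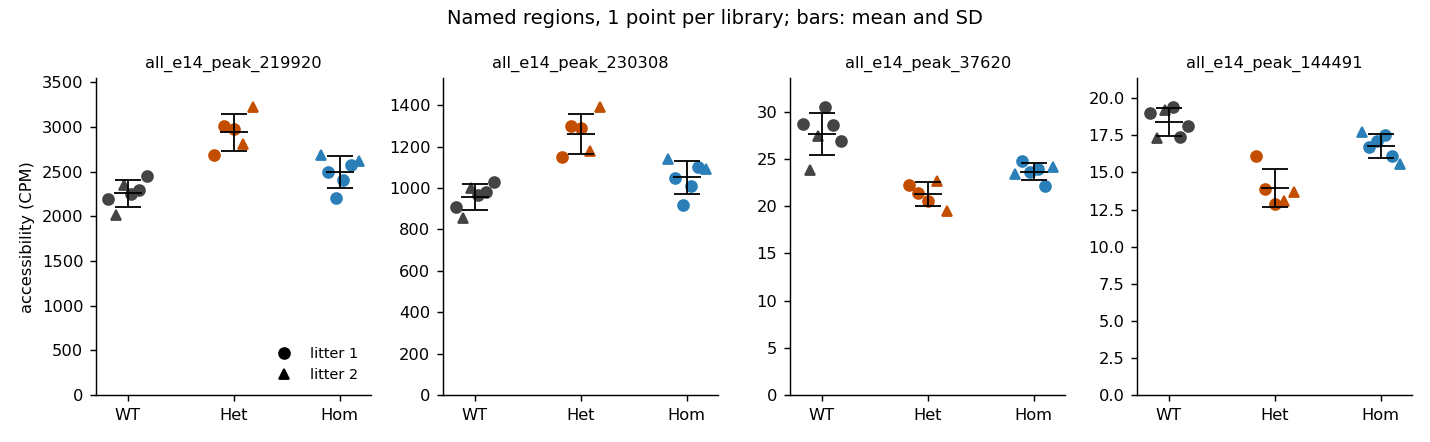
Accessibility (CPM, vertical axis from 0) of the 4 named regions in each WT, Het and Hom library, with circles for litter 1, triangles for litter 2, and the mean and SD in black. Het points lie wholly above WT in the panels of the rises and wholly below WT in those of the falls, with Hom means between the other genotypes in each.

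Most called regions were less clear than these. The called rise nearest to the median level and median difference of its set measured 5.21, 4.86, 4.46, 5.27 and 4.81 CPM in Het replicates 27, 31, 34, 49 and 64, and 2.76 to 4.21 CPM (median 3.56) in WT. Its difference was 0.49 log2 (SE 0.12, limma adjusted p = 0.0278), and it did not pass with the removed directions as covariates (limma adjusted p = 0.107). The corresponding fall measured 18.9, 16.8, 16.9, 16.5 and 16.9 CPM in Het and 18.7 to 22.8 CPM (median 20.4) in WT, so that Het replicate 27 lay above the lowest WT library. Its difference was -0.26 log2 (SE 0.06, limma adjusted p = 0.0288). It passed neither with the removed directions (limma adjusted p = 0.103) nor with the level trend removed (limma adjusted p = 0.131).

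A minority of the most accessible regions went against the tilt. Of 47 regions above 128 CPM, 11 rose, 2 fell and 34 were not called, and the median over all 47 was -0.06 log2. The rises crowded the top: 10 of the 14 regions above 200 CPM and 4 of the 5 above 1000 CPM rose and 0 fell, where 0.4% of all tested regions rose. The 11 rises spanned 0.21 to 0.40 log2, while the 34 uncalled regions had a median of -0.08 log2. All 11 also passed with the removed directions as covariates. The named rises are among them, and neither was called after quantile normalization. In 10 of the 11 every Het library was above every WT library, as in 62.7% of all 555 rises and 0.937% of all tested regions.

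These 11 regions varied together, with a median correlation of 0.956 between pairs over the 17 libraries. Their mean deviation was 0.10, 0.20, 0.21, 0.09 and 0.28 log2 in Het replicates 27, 31, 34, 49 and 64. In WT the deviations ran from -0.24 log2 in replicate 13 to -0.02 log2 (-0.015) in replicate 57. In Hom they ran from -0.17 log2 in replicate 40 to 0.07 log2 in replicate 65. Het and WT did not overlap, and Hom overlapped with WT. The differences were 0.22 to 0.36 log2 in litter 1 and 0.18 to 0.47 log2 in litter 2. The regions were picked by their calls, so these values describe them and test nothing.

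Rises also gathered in stretches of consecutive region numbers. What the order of the numbers follows is not known from the sources used here. Of the 555 rises, 37 (6.67%) had a neighbouring number that also rose, against 0.441% of all tested regions with a rise beside them. Of the 1136 falls, 22 (1.94%) had a neighbouring fall, against 1.18% of tested regions. Rises formed 16 runs, of which 12 were pairs, 3 were triplets and 1 held 4 regions; falls formed 11 pairs.

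The densest stretch lay at numbers 230222 to 230308, the last of which is the second named rise. It was picked as the stretch with the most rises, and its ends were set at its first and last rise. The shares below therefore describe it and test nothing. It held 81 tested regions, of which 27 (33.3%) rose and 0 fell, against 0.4% of all tested regions called higher. Het was above WT in 93.8% of the 81 regions. Their median difference was 0.30 log2, 0.33 in litter 1 and 0.23 (0.225) in litter 2, and 0.07 log2 in Hom. Of its 27 rises, 18 passed with the removed directions as covariates, and 26 regions passed with the level trend removed. The mean deviation of these regions was 0.11, 0.32, 0.11, 0.04 and 0.29 log2 in Het replicates 27, 31, 34, 49 and 64. In WT it ran from -0.21 log2 in replicate 46 to 0.02 log2 in replicate 25, just under Het replicate 49. The 100 numbers before it held 28 tested regions with a median of 0.29 log2 and 1 call. The 100 numbers after it held 59 with a median of -0.07 log2 and 0 calls, so the pattern stopped at the upper end.

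**Figure D4:**
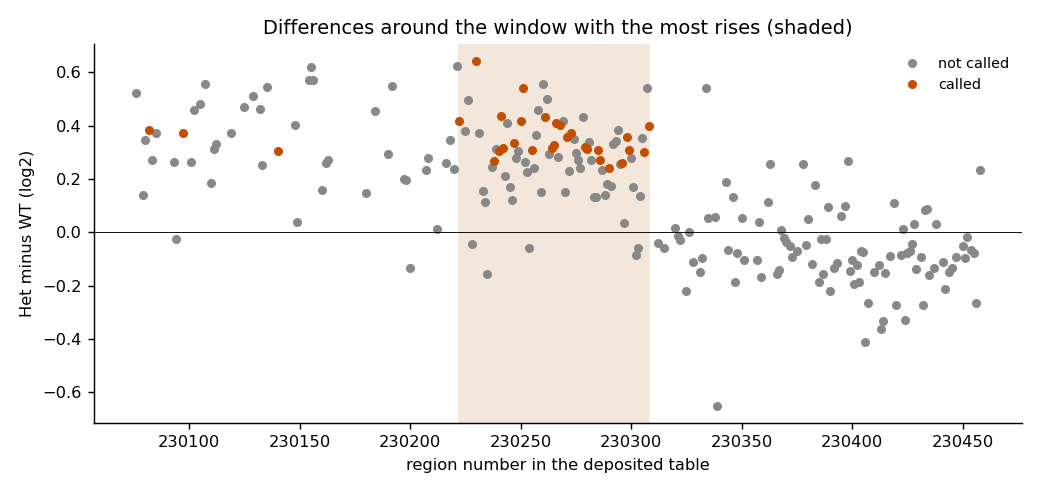
Het minus WT difference (log2, vertical axis) of each tested region by its number in the deposited table (horizontal axis), with numbers 230222 to 230308 shaded and called regions in orange. Most points in and to the left of the shaded stretch lie above 0, and points to the right of it scatter around and below 0.

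When numbers were cut into fixed windows of 100, 2358 windows held at least 20 tested regions. Their median differences ran from -0.13 to 0.37 log2, with the 1st and 99th percentiles at -0.12 and 0.14 log2. In 9 windows, forming 5 stretches, the median was above 0.2 log2, and in 0 it was below -0.2 log2. The 5 stretches held 39 of the 555 rises. They were picked by their values and carry no test. Numbers 33401 to 33500 held 10 rises and 1 fall among 68 regions, with a median of 0.24 log2 that came from litter 1 (0.28) more than litter 2 (0.04). The mean deviation there was 0.11, 0.20, 0.08 (0.075), -0.01 (-0.006) and 0.20 log2 in Het replicates 27, 31, 34, 49 and 64, and WT ran from -0.19 to 0.01 log2 (0.006), so that Het replicate 49 lay inside the WT range.

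A stretch with as large a median carried no call. Numbers 171301 to 171700 held 149 tested regions with a median Het difference of 0.34 log2 and a smallest limma adjusted p of 0.0552. Its libraries spread widely within each genotype, from -0.76 log2 in WT replicate 57 and -0.66 log2 in WT replicate 13 to 0.35 log2 in WT replicate 25. In Het they ran from -0.32 log2 in replicate 34 to 0.54 log2 (0.535) in replicate 64. The median Hom difference from WT was 0.35 log2 (0.352), as large as that of Het. Hom replicate 40 stood at -0.73 log2 (-0.725) and the other Hom libraries at 0.13 (0.129) to 0.50 log2 (0.503). Het and WT overlapped over most of their ranges.

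Each litter had its own WT libraries. The litters were still not independent, since the authors adjusted all libraries together, and 64.6% of the contrast between the litters lay in the 3 directions that hardly varied. In litter 1 alone 130 regions (0.0937%) passed. At these, the difference in litter 2 had the same sign in 118 (90.8%), where the litters had the same sign in 59.7% of all tested regions. The 43 rises of litter 1 had a median of 0.38 log2 there and 0.26 log2 in litter 2, with 42 of the 43 above 0. The 87 falls of litter 1 had a median of -0.36 log2 there and -0.12 log2 in litter 2, with 76 of the 87 below 0. The 1136 falls called over both litters had a median level of 18.7 CPM. At 16 to 32 CPM Het was higher in only 17.4% of tested regions, so 59.7% is a low share to set beside falls. With the level trend removed, 68 of 70 rises and 12 of 17 falls called in litter 1 kept their sign in litter 2, where 58.2% of all tested regions had the same sign in both. The falls, at 70.6%, were not far from that share.

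Litter 2 alone, with 2 libraries a genotype, called 29 regions (0.0209%). Of these, 14 were numbered 235733 to 235849, near the end of the table, and only 1 of the 14 had the same sign in litter 1. Of the other 15, 13 had the same sign in litter 1 and 9 were called there. The difference in the Het effect between the litters was called at 2 regions (0.00144%), and before adjustment 4.72% of regions were below 0.05. Of that contrast 20.1% lay in the 3 directions that hardly varied, against 0.0141% of Het against WT over both litters.

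Each library was also set against regions that were called without it. The fit was repeated without 1 library, and the median of that library over the regions then called was taken relative to the mean of Hom, which is in neither group. At regions called higher without them, Het replicates 27, 31, 34, 49 and 64 stood at 0.05, 0.15, 0.23, 0.16 and 0.18 log2. The 6 WT libraries stood at -0.11 to -0.06 log2. At regions called lower without them, the Het libraries stood at -0.06, -0.07, -0.15, -0.09 and -0.09 log2, and WT at -0.01 log2 (-0.00767) in replicate 13 to 0.13 log2 (0.125) in replicate 25. In both directions the left-out libraries of the genotypes did not overlap. Het replicate 27 was the weakest of the Het libraries in both. With the level trend removed it stood at 0.07 log2 at rises but at 0.00029 log2 (0.000287) at falls, where WT ran from 0.04 to 0.14 log2. The libraries were adjusted together with their genotype known, so a left-out library was not independent of the others.

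**Figure D5:**
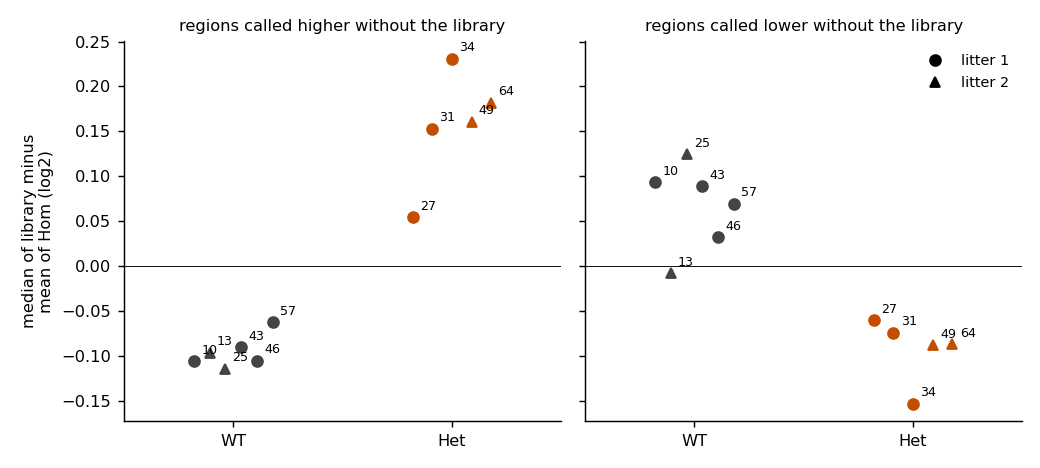
Median of each left-out library minus the mean of Hom (log2, vertical axis) over the regions called higher (left) or lower (right) in Het by the fit without that library; points are libraries, numbered by replicate and marked by litter. On the left all 5 Het libraries lie above 0 and all 6 WT libraries below it, and on the right Het lies below every WT library.

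Among the regions that varied most between libraries, some libraries of each genotype stood apart. A standard deviation above 1.2 log2 over the 17 libraries was found in 34 tested regions, of which 1 was called, a fall, where 1.22% of all tested regions were called. By their pattern over libraries, 31 of the 34 fell into 4 groups. The group numbered 235788 to 235808 (9 regions) had a mean of 1.91 log2 CPM in WT replicate 10 and -3.31 to -2.06 in the other 5 WT libraries. In Het it was 3.55 in replicate 49, 0.18 in replicate 34 and -3.09 to -2.002 in the other 3. Hom had 3.52 in replicate 20, 2.71 in replicate 65, -0.29 (-0.291) in replicate 40 and -3.31 to -3.022 in the rest. A group numbered 231662 to 233473 (11 regions) was low where the former was high. It measured -0.33 log2 CPM in WT replicate 10, -0.81 in Het replicate 49 and 0.65 (0.645) in Het replicate 34, and 1.40 to 2.67 in the other 8 WT and Het libraries. Hom had -1.087 in replicate 20, -1.004 in replicate 65 and 1.53 (1.533) to 2.94 (2.941) in the rest. None of these 20 regions was called. A group numbered 235729 to 235847 (8 regions, none called) had a mean of -2.41 log2 CPM in Het replicate 27 and 1.87 to 2.48 in the other 4 Het libraries. Hom there ran from -0.807 in replicate 61 to 3.21 (3.208) in replicate 6. With the mean of the group numbered 235788 to 235808 as a covariate, added after the data were examined, 1405 regions passed, 418 higher and 987 lower.

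The group numbered 21644 to 21646 (3 regions) held the called fall, with a difference of -1.74 log2 (limma adjusted p = 0.0467). Its mean was -0.16, -2.72, -1.67, -1.14 and 1.04 log2 CPM in Het replicates 27, 31, 34, 49 and 64, and -0.18 to 1.56 log2 CPM in WT. Het replicates 31, 34 and 49 lay below all WT libraries and Het replicates 27 and 64 within their range. This was the largest called difference in either direction, and 3 of 5 Het libraries carried it. In Hom the same regions ran from -2.45 (-2.445) in replicate 20 to 1.99 log2 CPM in replicate 54.

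Hom, with both alleles mutant, differed less from WT at the regions called in Het. At the 555 rises its median difference from WT was 0.21 log2 against 0.49 in Het, and at the 1136 falls -0.11 against -0.26. These comparisons share the WT libraries, and the regions were picked by the Het difference. Hom against WT called 0 regions in limma (0%), also with the 3 directions as covariates, and 12926 (9.32%) had an unadjusted p under 0.05, where Het against WT had 22487 (16.2%). The direct limma test of Hom against Het called 29 regions (0.0209%). Of these, 21 were among the 1691, which make up 1.22% of all tested regions. Both tests use the same Het libraries, so an overlap is built in and is no independent evidence.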

How the data were processed

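Tissue was embryonic mouse cortex, assayed by ATAC-seq. The authors deposited log2 CPM per numbered region after RUVr adjustment, as the name they gave the table states. Trimmomatic, Bowtie2, STAR, HTSeq and the mm10 build are named without role or version in the submitters' processing notes. No source used here names the peak caller or a read shift. The adult libraries were not used.

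From these values, limma 3.58.1 (lmFit, eBayes with an intensity trend) was fitted to the 138760 regions of at least 1 mean CPM in all 17 embryonic libraries, without covariates, and Het was contrasted with WT. Calls had a Benjamini-Hochberg adjusted p under 0.05. Library slopes and decile shares were compared by two-sided exact permutation over the 462 arrangements of 11 libraries. The level trend was a loess curve (span 0.3). Named are, in each direction, the 2 called regions with the smallest p at which Het and WT libraries did not overlap. The members, lists and settings were chosen with earlier results of these data known. No 2 libraries held identical values. Replicate numbers only name libraries and pair none. Libraries summed to 988155 to 1045790 CPM, read depth is unknown, and no counting error could be computed. Alternatives covered the filter, a constant added to CPM, scaling, litter, covariates, weights and leaving out each library.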

Additional observations from a re-analysis of the deposited data

Results flagged for a closer look

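A group of 8 of the most variable regions, numbered 235729 to 235847, had a mean of -2.411 log2 CPM in Het replicate 27, far below the 1.866 to 2.482 of the other 4 Het libraries. WT replicate 25 was the lowest WT library there, at -0.168. None of the 8 regions was called. In the 9 regions numbered 235788 to 235808, WT replicate 10 stood at 1.909 log2 CPM, far above the other 5 WT libraries. Of 26 sets of libraries checked for a library that stands apart, 2 had one, where chance gives about 1.3.

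The Het effect differed between the litters at 2 regions by limma's interaction test (adjusted p = 0.0143 for both). One, at a mean of 12.4 CPM, differed by -0.58 log2 in litter 1 and 0.72 in litter 2. It measured 6.31, 9.98 and 12.2 CPM in the litter 1 Het libraries against 12.9 to 15.8 in WT, and 16.1 and 15.0 CPM in the litter 2 Het libraries against 8.47 and 10.5 in WT. Het and WT did not overlap in either litter. The other, at 5.51 CPM, is among the 8 regions above. It measured 0.251 CPM in Het replicate 27 and 5.07 and 4.51 CPM in the other Het libraries of litter 1, where WT had 3.26 to 12.4 CPM, so that the litter 1 difference was -1.57 log2. In litter 2 the difference was 3.96 log2, with both Het libraries above WT, which had 0.903 and 0.506 CPM. Whether the deviation of Het replicate 27 accounts for the second call was not tested.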

How the results depend on the processing

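Against 1691 calls (555 higher, 1136 lower), the counts were 1058 (368 and 690) with no filter on level, 568 (388 and 180) after quantile normalization, 499 (359 and 140) with the level trend removed, 1122 (362 and 760) with litter as a block, 170 (71 and 99) with the 3 hardly varying directions as covariates, 127 (55 and 72) with these and litter, 14789 (5204 and 9585) with array weights, 130 (43 and 87) in litter 1 and 29 (26 and 3) in litter 2. Leaving out 1 library gave 203 to 2232 calls, 86 to 584 higher and 117 to 1648 lower, lowest without Het replicate 34 and highest without WT replicate 13. The litter fits hold fewer libraries, and the unfiltered fit tested more regions. The fits with the 3 directions as covariates leave fewer residual degrees of freedom. The cause of the other changes was not tested. The slope difference was -0.000612 after quantile normalization and -0.0204 in litter 2 alone, where 2 libraries against 2 cannot give an exact permutation p below 0.333. The decile share differed by -0.0145 percentage points after quantile normalization, -0.673 at a minimum of 2 CPM (exact permutation p = 0.0519) and -0.576 in litter 2. At all_e14_peak_219920 the quantile-normalized difference was 0.0. No other setting turned the direction of a named region or of the slope or share. No paired analysis was possible because no replicate number occurs in more than 1 group; litter, shared by several libraries of each genotype, entered as a block instead. Unknown read depth limits what the small differences at low levels can show.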
